A study of Homo sapiens with 4 samples.

Results

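The BCL2 family was followed through vemurafenib resistance and acute vemurafenib treatment of A375 cells, with 7 genes in view. They were the anti-apoptotic genes BCL2, BCL2A1, BCL2L1 and BCL2L2 and the pore-forming effectors BAX, BAK1 and BOK, taken by name from the 2864 genes with values in the table used here. RNA had been sequenced from A375, a BRAF-mutant human melanoma line, as 1 library for each of 4 conditions. These were untreated parental cells (A375P), the resistant strain kept under vemurafenib and built by stepwise dose escalation (A375R), cells given the solvent DMSO for 48 h (A375+DMSO) and cells given 2 μM vemurafenib for 48 h (A375+VEM). All 4 carry the same batch label and are labelled wild type. A375R is a single strain, labelled as treated continuously at no stated dose, so resistance and drug exposure cannot be told apart in it. With 1 library per condition there is no replicate spread, and no p-value is given for any difference.

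Proteins of the BCL2 family decide whether the outer membrane of mitochondria stays closed. BAX and BAK1, when active, assemble into pores that release cytochrome c and start the caspase cascade, and BOK is a related effector that can act on its own. BCL2, BCL-XL (the long product of BCL2L1), BCL-W (BCL2L2) and BFL-1 (BCL2A1) bind and hold back the effectors and the BH3-only proteins that activate them. In melanoma, BCL2A1 is known as a lineage survival gene under the pigment cell factor MITF, and it is also a target of NF-kB. MCL1, another anti-apoptotic member, was not analysed here.

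Expression is given as reads and as TPM, in which the authors divide counts by gene length and bring every library to the same sum, so levels of different genes can be set side by side on the TPM scale. The table holds the alphabetical start of the gene list. Its reads summed to between 1891215 and 2054277 per library and its TPM to between 8.48% and 8.94% of each library's total, so these sums are no library depths. Folds are ratios of TPM, with 95% confidence intervals (CI) by the exact Clopper-Pearson method, which use the reads of the pair of libraries and cover counting error only. A gene is counted as past 1.5-fold by its ratio of (TPM + 0.1), and only genes that reach 1 TPM in either library enter. All 7 members met that level in every comparison. In bulk RNA, fewer cells of a kind and less RNA per cell cannot be told apart.

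Pigment cell genes were looked at on a list of 5, which does not establish pigment cell identity by itself. ACP5, BCAN and BEST1 were above 1 TPM in all libraries and the list summed to between 46.7 and 56.7 TPM, while ABCB5 had 0 to 6 reads and BIRC7 1 to 18. The better known pigment markers MLANA, PMEL and SOX10 were not analysed here. BCL2A1 is also expressed by blood cells, but none of 11 lymphoid and myeloid markers reached 1 TPM in any library, their sums lay between 0.570 and 1.68 TPM, and C1QA had 0 reads in all 4. Of 4 fibroblast and smooth muscle markers, ACTA2 (28.3 to 92.2 TPM) and BGN (21.1 to 74.3 TPM) were expressed and ACTG2 and ASPN stayed under 1 TPM. Of 4 endothelial markers, BMX reached 1.30 TPM in A375+DMSO and ACE 8.81 TPM in A375+VEM.

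Coordinates of genes are those of the authors' table, and the submitters' processing notes name the build hg19. BCL2A1 lies at chr15:80253232-80263643 (minus strand). Counts were 62 reads in A375P and 32 in A375+DMSO, against 274 in A375R and 61 in A375+VEM, or 7.67, 4.24, 37.5 and 8.15 TPM. A375R stood above every other library, while A375+VEM and A375P differed by less than counting error, at a ratio of 1.06 (CI 0.733 to 1.54). BCL2A1 in A375R exceeded A375P by 4.89-fold (CI 3.70 to 6.55) and A375+DMSO by 8.84-fold (CI 6.12 to 13.2). In the latter comparison 99.9% of the 1702 genes had a lower log2 ratio. It was also 4.61-fold higher in A375R than in A375+VEM (CI 3.48 to 6.19). After acute treatment it was 1.92-fold higher than in A375+DMSO (CI 1.23 to 3.04), so the size of this difference rests on 32 and 61 reads. The gap between the untreated and the solvent library was of similar size, with A375P 1.81-fold above A375+DMSO (CI 1.16 to 2.86). BCL2A1 was the sole member whose level in both vemurafenib libraries lay above both libraries without the drug, and no member lay below, against 20.3% of 1700 genes on one side or the other. It lost that place when each library was scaled to a common median, which brings A375+VEM under A375P. No member kept a 1.5-fold gap between the 2 pairs of libraries, against 1.24% of the 1700 genes.

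BCL2, the founding member, lies at chr18:60790579-60986613 (minus strand). Its reads were 504 in A375P and 189 in A375+DMSO, against 223 in A375R and 27 in A375+VEM, which gave 8.88, 3.57, 4.35 and 0.514 TPM. The acute library was lowest by far and A375P highest, and A375R and A375+DMSO differed by less than counting error (ratio 1.22, CI 1.00 to 1.49). BCL2 was 6.95-fold lower in A375+VEM than in A375+DMSO (CI 4.63 to 10.8) and 17.3-fold lower than in A375P (CI 11.7 to 26.5). Its 2.04-fold lower level in A375R than in A375P (CI 1.74 to 2.40) did not extend to the solvent library as the control. Between the libraries without the drug, BCL2 was lower in A375+DMSO by a factor of 2.49 (CI 2.10 to 2.96).

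BCL2L1, at chr20:30252255-30311802 (minus strand), was the most abundant anti-apoptotic member in A375P, A375R and A375+DMSO. That ranking leaves out the readthrough record of BCL2L2 described below. BCL2L1 had 4353 reads in A375P and 2834 in A375+DMSO, against 3750 in A375R and 1126 in A375+VEM, or 151, 105, 144 and 42.1 TPM. The levels of A375P and A375R differed only narrowly, A375R being at 0.954 of A375P (CI 0.913 to 0.996), and A375+VEM was the low library. BCL2L1 was 2.50-fold lower in A375+VEM than in A375+DMSO (CI 2.33 to 2.68) and 3.58-fold lower than in A375P (CI 3.35 to 3.83). In A375R it was 1.37-fold higher than in A375+DMSO (CI 1.30 to 1.44). The counts are per gene and do not separate the long, anti-apoptotic product from the short, pro-apoptotic one.

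BCL2L2, at chr14:23775971-23780968 (plus strand), had 1911 reads in A375P and 1176 in A375+DMSO, against 1546 in A375R and 1233 in A375+VEM. In TPM these were 61.0, 40.2, 54.6 and 42.4, so the 48 h cultures were the lower ones and did not differ from each other beyond counting error (ratio 1.06, CI 0.974 to 1.14). Its value needs care, because a separate readthrough record, BCL2L2-PABPN1, starts at the same base and runs on to 23795394. How reads shared by the records were assigned is not given in the sources used here. The readthrough record extends past the end of BCL2L2 into PABPN1. The counts do not show how many of its reads lie within BCL2L2. The readthrough record had 1437 reads in A375P and 1605 in A375+DMSO, against 1388 in A375R and 2326 in A375+VEM, so BCL2L2 took 57.1%, 42.3%, 52.7% and 34.6% of the reads of both. Its part was thus highest in A375P and lowest in A375+VEM. With the reads of both added, a choice made after the values were seen, A375+VEM was 1.29-fold above A375+DMSO (CI 1.23 to 1.35) and A375R was 0.970 of A375P (CI 0.923 to 1.02). The 1.52-fold lower BCL2L2 in A375+DMSO than in A375P (CI 1.41 to 1.63) became a ratio of 0.890 with both records (CI 0.846 to 0.936).

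Among the effectors, BAX was the most abundant in every library. It lies at chr19:49458117-49465055 (plus strand), with 3155 reads in A375P and 1449 in A375+DMSO, against 1532 in A375R and 2173 in A375+VEM. Its TPM of 282, 139, 152 and 210 put A375P first and A375+VEM next, with A375R and A375+DMSO close together at a ratio of 1.09 (CI 1.02 to 1.17). BAX was 1.86-fold lower in A375R than in A375P (CI 1.75 to 1.98) and in A375+VEM exceeded A375+DMSO by 1.51-fold (CI 1.41 to 1.62). Both differences turned with the control. Against A375+DMSO, BAX in A375R was at 1.09, and against A375P, BAX in A375+VEM was 1.35-fold lower (CI 1.27 to 1.42). The acute difference was also just past the threshold, with a log2 ratio of 0.59 that became 0.49 once ratios were scaled to a median of 1.

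BAK1, at chr6:33540323-33548070 (minus strand), had 1190 reads in A375P and 504 in A375+DMSO, against 561 in A375R and 428 in A375+VEM. Its TPM of 63.3 in A375P stood apart from 28.7 in A375+DMSO, 33.0 in A375R and 24.6 in A375+VEM. BAK1 was 1.92-fold lower in A375R than in A375P (CI 1.73 to 2.12), 2.20-fold lower in A375+DMSO (CI 1.98 to 2.45) and 2.58-fold lower in A375+VEM (CI 2.30 to 2.88). Between A375+VEM and A375+DMSO the difference was 1.17-fold (CI 1.03 to 1.33). BAK1 has a pair of pseudogenes in the table, with 1 to 5 reads for BAK1P1 and 0 to 7 for BAK1P2.

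BOK, at chr2:242498146-242513553 (plus strand), was the least variable member. Its reads were 289 in A375P and 380 in A375+DMSO, against 369 in A375R and 298 in A375+VEM, or 12.7, 18.0, 18.0 and 14.2 TPM. A375R and A375+DMSO were level at a ratio of 1.00 (CI 0.867 to 1.16), and A375+VEM and A375P did not differ beyond counting error (ratio 1.11, CI 0.943 to 1.31). No comparison of BOK was past 1.5-fold, the widest being 1.41-fold higher in A375R than in A375P (CI 1.21 to 1.65). The antisense record BOK-AS1 overlaps BOK by 413 bases and had 0 to 15 reads.

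**Figure D1:**
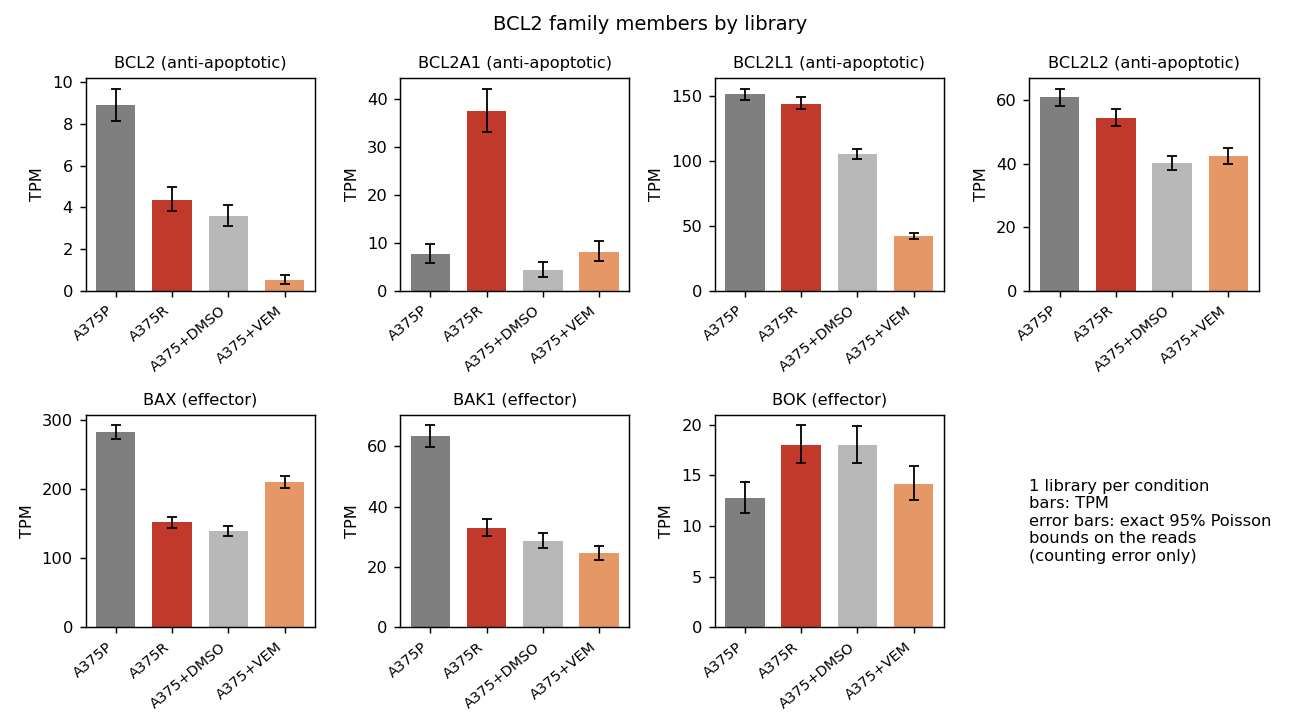
TPM of each member in the 4 libraries, as bars from 0 with exact 95% Poisson bounds on the reads, 1 library per bar. BCL2A1 stands out in A375R at 37.5 TPM, BCL2 and BCL2L1 are lowest in A375+VEM at 0.514 and 42.1 TPM, and BAX and BAK1 are highest in A375P at 282 and 63.3 TPM.

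Promoter windows are shown for BCL2A1, BCL2 and BAX, because BCL2A1 and BCL2 differed most between libraries and BAX went opposite ways in the study's pairs. RefSeq windows on GRCh38.p14, a different build from the table's, were at hand for 6 of the 7 members, and no window for BCL2L2. Each runs 5′ to 3′ on the gene's strand, from 250 bases before the start to 50 after it, and capitals mark the E-box letters CACGTG or CATGTG, the kind of site that MITF and other bHLH factors can bind. The BCL2A1 window is chr15:79971147-79971446 on the minus strand, that of BCL2 chr18:63319720-63320019 on the minus strand and that of BAX chr19:48954625-48954924 on the plus strand.
BCL2A1: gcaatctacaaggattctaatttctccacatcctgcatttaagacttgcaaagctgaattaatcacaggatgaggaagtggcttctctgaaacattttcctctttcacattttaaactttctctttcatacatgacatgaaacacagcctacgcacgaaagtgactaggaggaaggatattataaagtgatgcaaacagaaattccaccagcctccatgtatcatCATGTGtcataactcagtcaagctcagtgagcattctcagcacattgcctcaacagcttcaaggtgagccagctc
BCL2: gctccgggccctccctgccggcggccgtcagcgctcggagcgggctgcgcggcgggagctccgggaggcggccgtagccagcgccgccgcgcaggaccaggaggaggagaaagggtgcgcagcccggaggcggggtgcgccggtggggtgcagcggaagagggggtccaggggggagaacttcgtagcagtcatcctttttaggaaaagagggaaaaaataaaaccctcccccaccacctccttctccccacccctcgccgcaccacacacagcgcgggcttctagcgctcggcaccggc
BAX: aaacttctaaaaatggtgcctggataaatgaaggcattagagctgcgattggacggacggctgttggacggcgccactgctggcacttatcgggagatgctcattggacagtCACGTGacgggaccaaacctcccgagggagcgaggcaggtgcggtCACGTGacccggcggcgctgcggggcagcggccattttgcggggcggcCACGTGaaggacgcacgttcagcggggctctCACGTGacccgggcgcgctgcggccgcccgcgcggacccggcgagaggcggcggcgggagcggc

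The BCL2A1 window held 1 CATGTG, starting at base -25 from the start site, which 11.1% of all 35116 windows also hold on either strand. The BAX window held 4 copies of CACGTG, at -138, -93, -45 and -14, where 7.26% of all windows hold at least 1. The BCL2 window had neither. The BCL2A1 window is poor in G and C (41.0%) beside BCL2 (70.7%), BAX (67.3%) and the median window (58.7%). Searched on both strands in the same way, TGANTCA (AP-1, in 7.71% of windows), TGACGTCA (CRE, in 1.85%), GGAATG (TEAD, in 14.0%) and the NF-kB consensus (in 5.91%) were in none of the windows of the 6 members. The letters GGGCGG (GC box, in 45.0% of windows) were in those of BAX, BAK1, BOK and 1 of the 2 windows of BCL2L1. These are matches of letters in short windows and were not tested as sites.

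To see how resistance was marked in the family, A375R was set against A375P. BCL2A1 was higher, and BCL2, BAX and BAK1 were lower, each past 1.5-fold, while BCL2L1, BCL2L2 and BOK stayed inside it. So 1 member of 7 was higher, where 26.8% of the 1689 genes compared were, and 3 were lower, where 17.5% were. The members' median log2 ratio was -0.16, beside 0.10 over all genes compared. Against A375+DMSO in place of A375P, BCL2A1 was again higher and no other member passed the threshold. That is 1 member higher beside 10.5% of 1702 genes and 0 lower beside 9.99%, with a median of 0.28 beside 0.02. The higher BCL2A1 in A375R was therefore there against either library without the drug, and the lower BCL2, BAX and BAK1 against A375P alone.

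The acute response was read from A375+VEM against A375+DMSO. BCL2 and BCL2L1 were lower and BCL2A1 and BAX higher past 1.5-fold, and BCL2L2, BAK1 and BOK were not. The counts of 2 members higher and 2 lower stand beside 26.5% and 19.7% of 1784 genes, and the median was -0.22 beside 0.11. With A375P as the control instead, 0 members were higher (36.9% of 1782 genes) and BCL2, BCL2L1 and BAK1, 3 members, were lower (25.3%), with a median of -0.52 beside 0.15. The lower BCL2 and BCL2L1 were thus found against both controls, whereas BAX and BCL2A1 were higher against A375+DMSO alone.

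The libraries without vemurafenib also differed in this family. From A375P to A375+DMSO, BCL2, BCL2A1, BCL2L2, BAX and BAK1 were lower, 5 of 7 beside 18.9% of 1720 genes, and 0 were higher beside 26.8%. With the readthrough reads added to BCL2L2, 4 members were lower. Their median log2 ratio was -0.84, beside 0.09 over all genes. BCL2L1 was at 0.698 of A375P (CI 0.665 to 0.732) and passed the threshold only after scaling to a median of 1. BCL2 and BAK1, 2 of the 7 members, were past 1.5-fold higher in A375P than in each other library, beside 7.59% of 1700 genes. The solvent, the culture and the handling of the cells cannot be told apart with 1 library each.

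**Figure D2:**
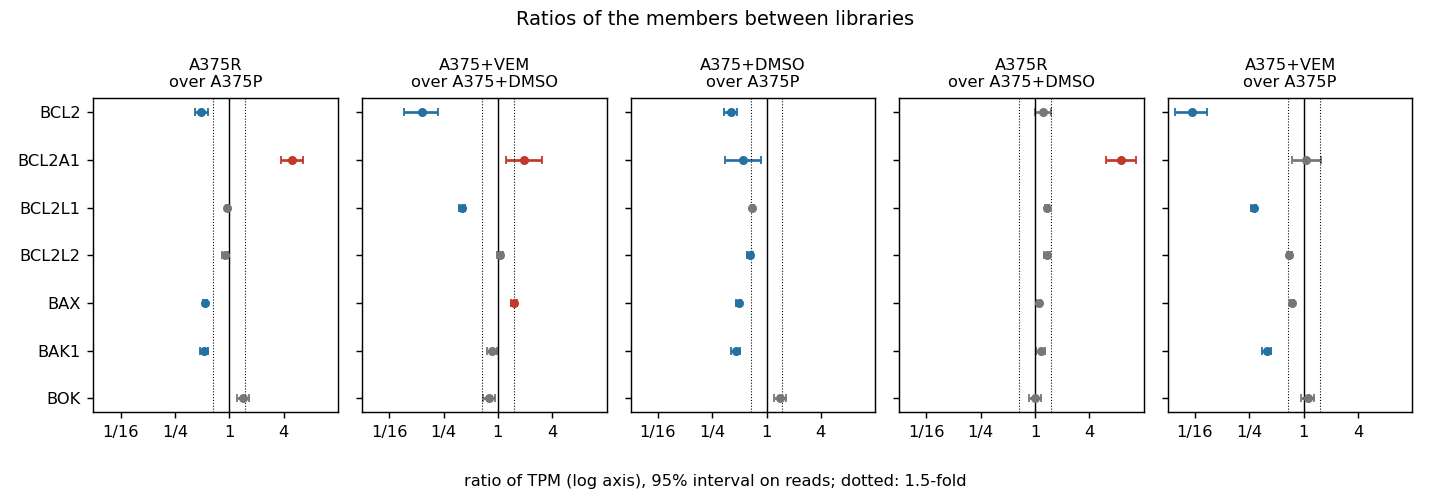
Ratio of TPM of each member in 5 comparisons on a log axis, with 95% intervals on the reads, red for higher and blue for lower past 1.5-fold (dotted) and grey for neither. BCL2A1 is to the right of the line in A375R over either control, and BCL2 and BCL2L1 are to the left in A375+VEM over either control.

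**Figure D3:**
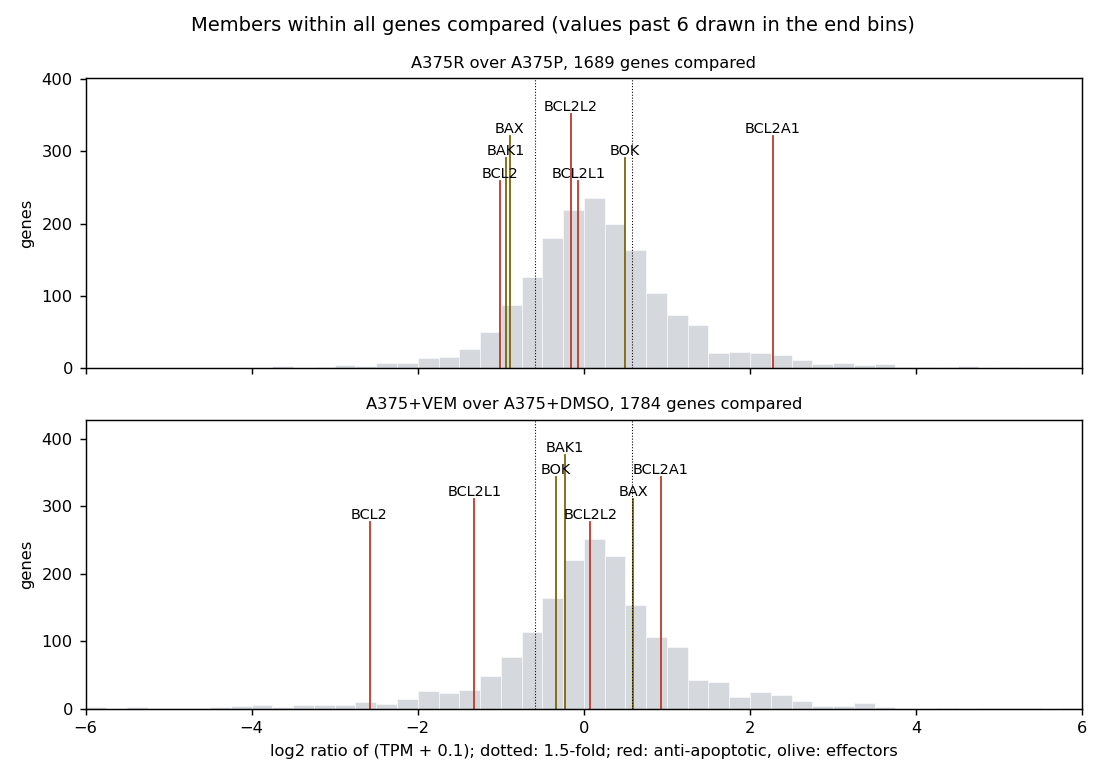
Histogram of log2 ratios of (TPM + 0.1) of all genes compared in the study's pairs, with a vertical line for each member, red for anti-apoptotic genes and olive for effectors, and dotted lines at 1.5-fold. In A375R over A375P BCL2A1 lies at 2.28 and BCL2, BAK1 and BAX near -1, and in A375+VEM over A375+DMSO BCL2 lies at -2.58 and BCL2L1 at -1.32.

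Since TPM is per length, the members could also be weighed against each other within a library. The anti-apoptotic genes summed to 228 TPM in A375P and 153 in A375+DMSO, against 240 in A375R and 93.2 in A375+VEM. The effectors summed to 358, 186, 203 and 248 TPM in the same order. Effector over anti-apoptotic TPM was 1.57 in A375P (CI 1.51 to 1.63) and 1.21 in A375+DMSO (1.15 to 1.28), against 0.843 in A375R (0.802 to 0.887) and 2.67 in A375+VEM (2.52 to 2.82). By the members alone, A375R was thus lowest and A375+VEM highest, and no intervals overlapped. The place of A375+VEM rested on leaving the readthrough record BCL2L2-PABPN1 out. With its TPM added to the anti-apoptotic sum, a choice made after the values were seen, the ratio was 1.17 in A375P (1.12 to 1.21) and 0.750 in A375+DMSO (0.713 to 0.788), against 0.625 in A375R (0.595 to 0.655) and 1.08 in A375+VEM (1.03 to 1.13). A375R was then still lowest, while A375+VEM was no longer highest and its interval overlapped that of A375P. That sum takes every read of the readthrough record as anti-apoptotic, although the record extends beyond BCL2L2. These intervals propagate counting error on the log scale, and the ratio concerns RNA of 7 genes without MCL1.

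BCL2L1 made up 66.1% of the anti-apoptotic TPM in A375P, 59.9% in A375R and 68.7% in A375+DMSO. In A375+VEM it shared first place with BCL2L2, at 45.2% and 45.5%. These shares leave out BCL2L2-PABPN1, which had 78.7 TPM in A375P and 94.2 in A375+DMSO, against 84.2 in A375R and 138 in A375+VEM. The share of BCL2A1 was 3.36% in A375P and 2.77% in A375+DMSO, against 15.6% in A375R and 8.74% in A375+VEM, so its place in the sum was largest in the resistant strain. With BCL2A1 left out, the ratio in A375R came to 1.00, still the lowest of the 4. BCL2 was a minor part throughout, from 0.551% in A375+VEM to 3.89% in A375P. BAX accounted for 74.8% to 84.4% of effector TPM, the top value in A375+VEM. The ratio of BAX to BCL2 TPM, often used as a sign of readiness for apoptosis, was 31.8 in A375P (CI 28.9 to 35.0) and 38.9 in A375+DMSO (33.4 to 45.5), against 34.8 in A375R (30.3 to 40.3) and 408 in A375+VEM (280 to 621). The other 3 libraries had overlapping intervals, and A375+VEM stood apart on 27 reads of BCL2. Against the more abundant BCL2L1, BAX was at 1.87 in A375P and 1.32 in A375+DMSO, against 1.05 in A375R and 4.98 in A375+VEM.

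**Figure D4:**
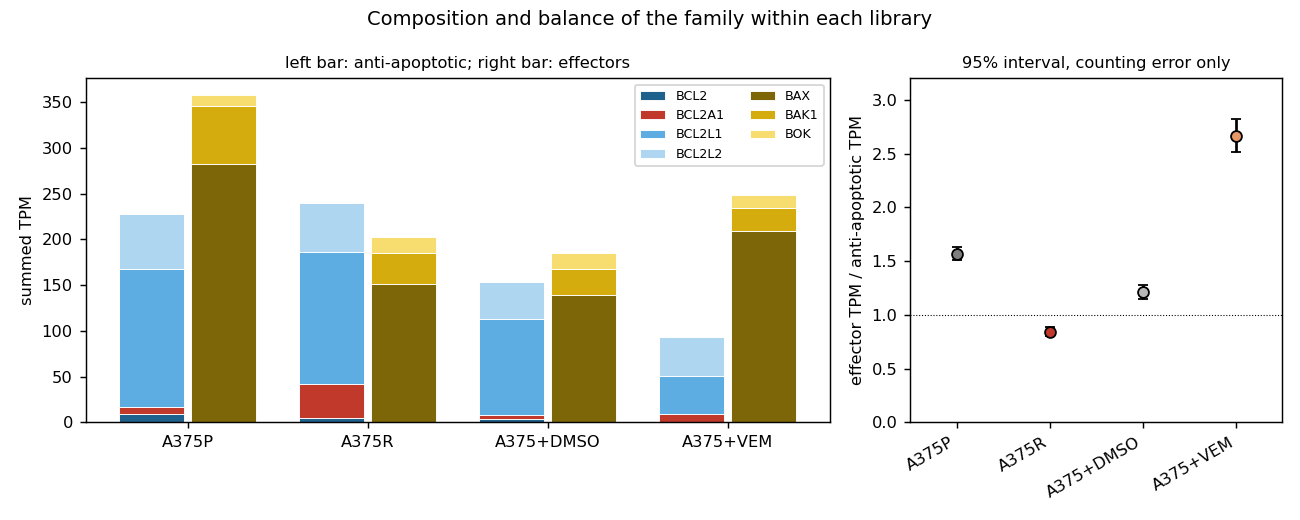
Left, summed TPM of the anti-apoptotic members (left bar) and effectors (right bar) of each library, stacked by gene. Right, effector over anti-apoptotic TPM with 95% intervals for counting error, lowest in A375R at 0.843 and highest in A375+VEM at 2.67. The readthrough record, which brings A375+VEM to 1.08 when added, is not in the sums.

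BH3-only proteins, which the anti-apoptotic members sequester, were described from a list of 6 genes. In A375R against A375P, 3 were higher and 1 lower past 1.5-fold, where 26.8% and 17.5% of all genes were. Their median log2 ratio was 0.48 beside 0.10 over all genes. BAD, BIK and BMF were the higher ones and BBC3, which encodes PUMA, was 1.86-fold lower (CI 1.68 to 2.06). Against A375+DMSO, BIK remained as the single gene past the threshold, 2.55-fold higher in A375R (CI 1.62 to 4.10), with 69 and 28 reads. Of all genes, 10.5% were higher and 9.99% lower in that comparison. In A375+VEM against A375+DMSO, 2 were higher and 2 lower, where 26.5% and 19.7% of all genes were. Their median was 0.22 beside 0.11. BMF went from 144 to 4865 reads, 34.0-fold higher (CI 28.8 to 40.4), and BCL2L11, which encodes BIM, from 214 to 670, 3.15-fold higher (CI 2.70 to 3.69). BID and BIK were the lower ones, at 1.58-fold (CI 1.36 to 1.85) and 3.09-fold (CI 1.42 to 7.44). The BIK value rested on 28 and 9 reads. Against A375P, BMF and BCL2L11 were also higher in A375+VEM, by 72.9-fold and 3.71-fold. BAD was higher there too, and BIK and BBC3 were lower, where 36.9% of all genes were higher and 25.3% lower. BID was 1.39-fold lower than in A375P (CI 1.19 to 1.63), inside the threshold. Of the 4 libraries, A375+VEM had the most BMF, BCL2L11 and BAD RNA among the 6 BH3-only genes, and the least BID, BIK and BBC3 RNA. For BBC3, A375+VEM and A375+DMSO differed by less than counting error (ratio 0.916, CI 0.808 to 1.04). Among the members A375+VEM had the least BCL2 and BCL2L1 RNA and also the least RNA of the effector BAK1.

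Other genes of the pathway were counted in the same way. Of 10 further BCL2-like and BNIP genes, 7 were compared in each of the study's pairs. In A375R over A375P, 1 was higher and 1 lower, where 26.8% and 17.5% of all genes were. In A375+VEM over A375+DMSO, 1 was higher and 2 lower, where 26.5% and 19.7% of all genes were. BCL2L10, a further anti-apoptotic gene, had 0 to 7 reads. Of 10 BCL2-binding proteins and cofactors, 0 were higher in A375R than in A375P. In that pair 1 was lower, the chaperone cofactor BAG1 at 2.88-fold (CI 2.65 to 3.13). Against A375+DMSO, BAG1 in A375R was at 1.12 (CI 1.00 to 1.24) and 0 of the 10 were lower. BAG3 and BFAR, 2 genes, were lower in A375+VEM than in A375+DMSO, and 0 were higher. Against A375P, BFAR was again lower, with BAG1 and BCAP31, and AMBRA1 was higher. BAG3 was then at 0.667 (CI 0.617 to 0.719), just short of the threshold.

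Of 8 genes of the apoptosome and the inhibitors of apoptosis, APIP and BIRC3 were higher in A375R than in A375P among 7 compared. The share of all genes higher was 26.8% there, 10.5% in A375R over A375+DMSO and 26.5% in A375+VEM over A375+DMSO. With A375+DMSO as the control the higher ones were BIRC2 and BIRC3, and APIP was at 0.883 (CI 0.785 to 0.993). In A375+VEM over A375+DMSO the median log2 ratio of the 8 was 0.44 beside 0.11 over all genes, with BIRC7 higher on 9 and 18 reads and BIRC5 lower. BIRC5, which encodes survivin, went from 1398 to 18 reads and was 77.1-fold lower (CI 48.6 to 131), and against A375P it was 64.4-fold lower (CI 40.6 to 109).

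Because BCL2A1 has known NF-kB and MITF inputs, short lists of genes of both kinds were set beside it. Both lists were chosen with earlier results of these data known. Their counts beside the shares of all genes are therefore descriptions only. Of 6 NF-kB target genes, BCL3, BIRC3, BMP2 and C3 were higher in A375R than in A375P, 4 genes where 26.8% of all were, with a median log2 ratio of 1.04 beside 0.10. Against A375+DMSO the 4 higher genes were BIRC2, BIRC3, BMP2 and C3, where 10.5% of all were, with a median of 1.12 beside 0.02. BCL3 was then at 1.25 (CI 1.14 to 1.38), and BIRC2 had been at 0.822 of A375P (CI 0.780 to 0.865), so BIRC3, BMP2 and C3 were past the threshold with either control. In A375+VEM against A375+DMSO 2 were higher, B2M and C3, and 1 lower, BMP2, with a median of -0.18 beside 0.11. Of all genes, 26.5% were higher and 19.7% lower in that pair. Against A375P, B2M and C3 were again higher and BIRC2, BIRC3 and BMP2 lower, with a median of -0.50 beside 0.15. There 36.9% of all genes were higher and 25.3% lower. From A375P to A375+DMSO, C3 was higher and BIRC2, BIRC3 and BMP2 lower, with a median of -0.46 beside 0.09. The shares of all genes were 26.8% and 18.9%. Of 5 MITF-linked genes, 3 were compared in A375R, with 0 higher and 1, ASAH1, lower than in A375P, and a median of 0.38 beside 0.10. Against A375+DMSO 0 of the 3 were past the threshold and their median was -0.31. In A375+VEM against A375+DMSO, ACP5, ASAH1 and BIRC7 were higher and BEST1 lower among 4 compared, with a median of 0.79 beside 0.11. BIRC7, on 9 and 18 reads, was not higher beyond counting error (ratio 2.01, CI 0.859 to 5.09). With A375P as the control, ACP5 and BIRC7 were higher and 0 lower, with a median of 0.88 beside 0.15. ASAH1 was then at 1.01 (CI 0.921 to 1.12). Whether these genes and BCL2A1 have a common cause was not tested.

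**Figure D5:**
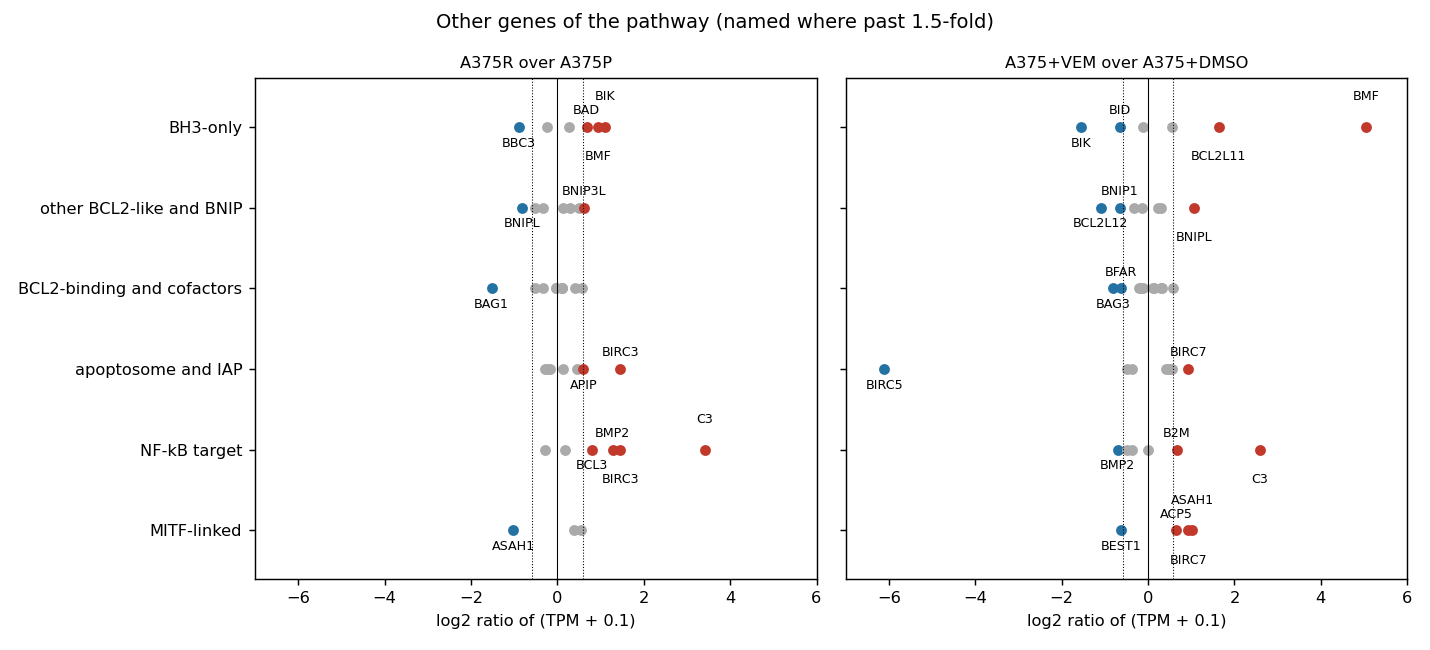
Log2 ratios of (TPM + 0.1) of the genes in each pathway list, 1 point per gene, with names for those past 1.5-fold (dotted), red for higher and blue for lower. BMF is at 5.05 in A375+VEM over A375+DMSO, and in A375R over A375P 4 of the NF-kB target genes are red.

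The genes with the most similar pattern were sought by the root mean square difference of centred log2(TPM + 0.1) over the 4 libraries, among 1699 other genes whose mean TPM reached 1. For BCL2A1 these were C15orf54 (difference 0.09), C15orf48 (0.22) and ATP6V0A4 (0.24), each with its top level in A375R. The nearest to BCL2 were ABHD17C (0.12), ABCA10 (0.24) and ARSG (0.25), all lowest in A375+VEM. BCL2L1 was closest to C2orf69 (0.05), C4orf36 (0.05) and C15orf61 (0.07). BCL2L2 was nearest to BCL7B, ARMT1 and ATR, and BAX to AKT1S1, ALG2 and C7orf13, at differences from 0.02 to 0.06. For BAK1 the closest were BZW1 (0.04), AKAP17A (0.05) and the BH3-only gene BBC3 (0.08), which went from 65.0 TPM in A375P to between 29.1 and 34.9 in the others. With 4 libraries such likeness is a description only.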

How the data were processed

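The 4 conditions (A375P, A375R, A375+DMSO, A375+VEM) gave 1 RNA library each. The authors deposited 1 table with whole-number read counts and TPM for each gene. The authors' TPM is the count over gene length, scaled over the whole library, and TPM times length over count was 1 constant per library here. The submitters' processing notes name HISAT2, TopHat2, Bowtie2, HISAT and hg19 without roles. The counting program and its use of strand are not given in the sources used here. The table used here ends at CACYBP, and 1 incomplete row was left out.

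Columns were matched to libraries by the TPM column named in each label. Libraries were compared by the ratio of (TPM + 0.1), with a minimum TPM of 1 and a threshold of 1.5-fold, and intervals were computed on the reads. The interval and ratio steps were tested on simulated counts with counting error only, the error that the intervals assume. That test held no variation between cultures and cannot tell how large it is. No condition was tested against another. The 7 members and the lists were chosen with earlier results of these data known. Named were the members, listed genes past 1.5-fold in a pair, and the 3 genes closest in pattern to each member, which for BOK are not reported here. The alternatives were other pseudocounts, filters and thresholds, median scaling, the other control, count sums and BCL2A1 left out, and, chosen after seeing the data, the BCL2L2-PABPN1 readthrough added. Scripts ran on pandas 2.3.3, scipy 1.17.1, matplotlib 3.10.9 and numpy 2.4.6 under Python 3.11.15.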

Additional observations from a re-analysis of the deposited data

Results flagged for a closer look

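BAX was past 1.5-fold in opposite directions in the study's pairs, at a log2 ratio of (TPM + 0.1) of -0.90 in A375R over A375P and 0.59 in A375+VEM over A375+DMSO. This was 1 member of 7, where 12.1% of 1656 genes compared in both pairs did so, so the count was near that share. Both directions turned with the other control, to 0.13 in A375R over A375+DMSO and -0.43 in A375+VEM over A375P. How far the pairs differ was not tested, as each condition has 1 library.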

How the results depend on the processing

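Depth and design limit these values: each condition is 1 library, and intervals cover counting error only. No paired analysis was possible because no result comes from a test, and leaving out a library leaves no comparison.

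With the controls of A375R and A375+VEM exchanged, the count of members past 1.5-fold in A375R went from 4 to 1. The log2 ratio then turned to 0.28 for BCL2, 0.13 for BAX and 0.20 for BAK1 in A375R, and to -0.43 for BAX in A375+VEM. At a threshold of 2-fold, stricter by construction, 2 members were past it in A375R over A375P, 2 in A375+VEM over A375+DMSO and 3 in A375+DMSO over A375P. The share of all genes past 2-fold is not given here, so whether these counts are many or few cannot be read from them. The member with both vemurafenib libraries on one side, BCL2A1, was lost under median scaling (0 members) and when every ratio had to pass 1.5-fold (0 members). Of 39 counts under these alternatives, 33 stayed within 1.5 times the count as reported. That rule compares the size of a count and not its genes or directions. With the other control, A375+VEM passed it although its members went from 2 higher and 2 lower to 0 higher and 3 lower. Dropping the filter on low values could not change any count, as all members already met it. With a minimum of 5 TPM, BCL2 left the acute count, which became 3. It was at 3.57 TPM in A375+DMSO and 0.514 in A375+VEM. With a pseudocount of 1, the acute log2 ratio of BCL2 went from -2.58 to -1.59 and stayed past 1.5-fold. Scaling to a median ratio of 1, which moves log2 ratios by up to 0.15 down, took BAX out of the acute count and brought BCL2L1 into A375+DMSO over A375P and BCL2L2 into A375+VEM over A375P.

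Summed counts, which favour long genes by construction, gave effector over anti-apoptotic ratios of 0.678 in A375P and 0.551 in A375+DMSO, against 0.425 in A375R and 1.18 in A375+VEM, in the same order as TPM. Leaving out BCL2A1 gave 1.00 in A375R and 2.92 in A375+VEM. Adding the TPM of BCL2L2-PABPN1, chosen after seeing the data, gave 1.17 in A375P, 0.750 in A375+DMSO, 0.625 in A375R and 1.08 in A375+VEM, so that A375+VEM was no longer highest. Adding its reads to BCL2L2 took BCL2L2 out of A375+DMSO over A375P, leaving 4 members.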
